A study of Mus musculus with 3 samples.

Results

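Fos, Junb and Dusp1 are immediate-early genes, and 4 array spots stood for them here: 1 of Fos, 1 of Junb and 2 of Dusp1, among 11552 spots in all. The spots are those with a value on all 3 arrays and a platform annotation that gives exactly 1 gene, that gene being Fos, Junb or Dusp1. A further 3 spots of these genes, 2 of Fos and 1 of Junb, had a value on 2 arrays only and are described beside them. The genes were chosen because their ratios were high and uneven between mouse pairs, so their ratios are given as a description, with no test of their own.

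Each of the 3 arrays, T1, T2 and T3, compared 1 castrated C57BL/6 mouse that carried a testosterone pellet with its matched castrated mouse that carried a placebo pellet. The placebo mice therefore lacked testes too, and the comparison is of replacement against castration alone. The mice had been castrated at 7 weeks of age, carried the pellet (12.5 mg, released over 60 days) for 4 weeks and were 17 weeks old when femora, tibiae and humeri were taken. Each array was a two-colour hybridisation: the testosterone sample carried the dye Cy5 in pairs T1 and T3, and Cy3 in pair T2. The labels name the tissue as bone marrow, and their extraction text speaks of pulverized bone. Values are ratios, which hold no level, so the tissue could be checked only for whether its markers gave values. This was so on all arrays for 9 of 9 erythroid, 9 of 11 B-lineage and 6 of 6 neutrophil genes with a spot. It was also so for 7 of 8 monocyte and macrophage, 3 of 5 endothelial, 5 of 6 osteoblast and matrix and 7 of 14 skeletal muscle genes. Counted by spot rather than by gene, 6051 of all 11552 spots had a value on all arrays. In bulk RNA such as this, a change in the number of cells of a type and a change in RNA per cell cannot be told apart.

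Immediate-early genes are switched on within minutes when a cell is stimulated, without new protein synthesis, because the factors that drive them are already present and are activated by kinases. Fos and Junb encode basic leucine zipper proteins. Fos pairs with a Jun family member to form the transcription factor AP-1. Dusp1 encodes a dual specificity phosphatase that is induced by the same kinases it switches off, p38, JNK and ERK, and so limits the response. In bone, AP-1 proteins are known for their roles in osteoclast and osteoblast formation, and in any tissue these transcripts are known to respond quickly to stress and handling.

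The 250 bases before the RefSeq transcription start of each gene (build GRCm38.p6) are shown because the genes are known targets of the same signalling kinases. The capitals mark TGACG, the core of the cAMP response element, on either strand, and TATAA, the TATA box core, on the gene's strand. Each sequence is written 5′ to 3′ on the strand of its gene, which is the forward strand for Fos at chr12:85473640-85473889 and the reverse strand for Junb at chr8:84978749-84978998 and Dusp1 at chr17:26508473-26508722.
Fos: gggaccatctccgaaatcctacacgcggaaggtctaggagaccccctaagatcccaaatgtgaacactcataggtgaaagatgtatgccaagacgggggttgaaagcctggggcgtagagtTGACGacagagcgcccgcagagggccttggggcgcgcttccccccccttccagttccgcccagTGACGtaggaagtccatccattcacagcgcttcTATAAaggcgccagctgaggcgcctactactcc
Junb: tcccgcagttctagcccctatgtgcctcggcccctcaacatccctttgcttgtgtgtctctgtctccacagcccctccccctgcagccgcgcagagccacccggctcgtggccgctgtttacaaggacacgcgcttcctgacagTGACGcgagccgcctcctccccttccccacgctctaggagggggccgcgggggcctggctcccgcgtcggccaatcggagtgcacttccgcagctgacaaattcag
Dusp1: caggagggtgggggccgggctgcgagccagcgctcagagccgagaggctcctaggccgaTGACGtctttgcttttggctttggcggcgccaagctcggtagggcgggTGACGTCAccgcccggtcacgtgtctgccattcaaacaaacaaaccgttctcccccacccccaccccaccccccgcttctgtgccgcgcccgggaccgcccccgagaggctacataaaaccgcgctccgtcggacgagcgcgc

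All 3 windows held TGACG, which 17.8% of the 32841 RefSeq windows of this length hold on at least 1 strand. In Fos it began 129 and 66 bases before the start, and in Junb 106 bases before it. In Dusp1 it began 191 and 143 bases before the start on the gene's strand, and the latter match was part of the full palindrome TGACGTCA, where it overlaps its own reverse complement. That palindrome was present in 1.55% of all windows, and in the windows of Fos and Junb it was not found. TATAA was found in the Fos window, beginning 33 bases before the start, against 16.0% of all windows on the gene's strand. CCAAT (33.9% of windows, either strand) was found in that of Junb alone, beginning 36 bases before the start. Neither TGANTCA, the AP-1 motif (6.75% of windows, either strand), nor the CArG box, the motif of serum response factor (1.47%), was found in these windows, which says only that the letters are not in this stretch. A match is a description of the letters and not of a bound site.

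The deposited values were taken to be log2 ratios with testosterone as the numerator. That numerator is likely and not settled: the series' text calls testosterone the experimental channel, and no label states how the ratio was formed. The base is likewise a reading of how far the values range. T1 had values at 9007 spots, T2 at 6771 and T3 at 6982, and 6039 spots were tested. The spread of the values differed, with standard deviations of 0.30 (T1), 0.50 (T2) and 0.33 (T3). Over spots with a value on all arrays, the correlation was 0.733 between T2 and T3, 0.489 between T1 and T3 and 0.422 between T1 and T2, a description over spots, which are not independent. With the sign of T2 turned, the correlation would be -0.733 between T2 and T3 and -0.422 between T1 and T2, so which arrays are most alike depends on that sign. The medians of the B-lineage markers described below were -2.135 (T1), -2.241 (T2) and -1.652 (T3) as deposited. With T2 turned, that of T2 would differ in sign from those of T1 and T3. Which sign is right was not tested.

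Fos (Entrez Gene 14281) had the largest ratios of the 3 genes. Its spot with a value on every array, called spot A here, gave 0.29 (T1), 4.22 (T2) and 2.03 (T3) on the log2 scale. These are 1.22-fold, 18.6-fold and 4.08-fold higher with testosterone. T1 thus lay near 0 while T2 and T3 were high, and the value on T2 was rank 2 from the highest of all 6771 spots of that array. On T3 the spot held rank 11 of 6982, and on T1 rank 1326 of 9007.

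The other Fos spots, B and C, carry a different expressed sequence of the gene and had no value on T1. Spot B had 3.82 on T2 and 2.08 on T3, and spot C 4.47 on T2 and 2.55 on T3. With T2 as deposited, the 3 highest values of that array were the 3 Fos spots, spot C being rank 1 and spot B rank 3, and with its sign turned they would be the 3 lowest. On T3 spot C held rank 5 and spot B rank 10. All 3 spots gave a higher ratio on T2 than on T3, by 2.19 (A), 1.74 (B) and 1.92 (C) on the log2 scale.

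Junb (Entrez Gene 16477), a Jun family partner of Fos, gave log2 ratios of 0.009 (T1), 2.03 (T2) and 0.94 (T3) at spot A. This is 1.01-fold, 4.10-fold and 1.91-fold. Spot B, which carries the same sequence, lacked a T1 value and gave 1.70 (T2) and 0.94 (T3). Spot A was rank 18 on T2, rank 58 on T3 and rank 4468 on T1, close to the middle of that array. The T1 value of Junb thus lay at 0 to within the differences between duplicate spots given below, and T2 was again higher than T3, by 1.10 at spot A and 0.77 at spot B.

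Dusp1 (Entrez Gene 19252) had 0.19 (T1), 1.76 (T2) and 1.40 (T3) at spot A, which is 1.14-fold, 3.39-fold and 2.64-fold. Spot B had 0.11 (T1), 1.59 (T2) and 1.475 (T3), which is 1.08-fold, 3.0-fold and 2.78-fold. Here T2 and T3 lay close to each other, 0.36 apart at spot A and 0.11 at spot B, unlike in Fos. The ranks on T3 were 17 and 15, above Junb, whereas on T2 they were 36 and 53, below Junb spot A at 18. Junb spot B was rank 40 on T2, between the Dusp1 spots, so the order of Junb and Dusp1 on that array depended on the spot. Fos was the highest of the 3 genes on both T2 and T3.

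**Figure D1:**
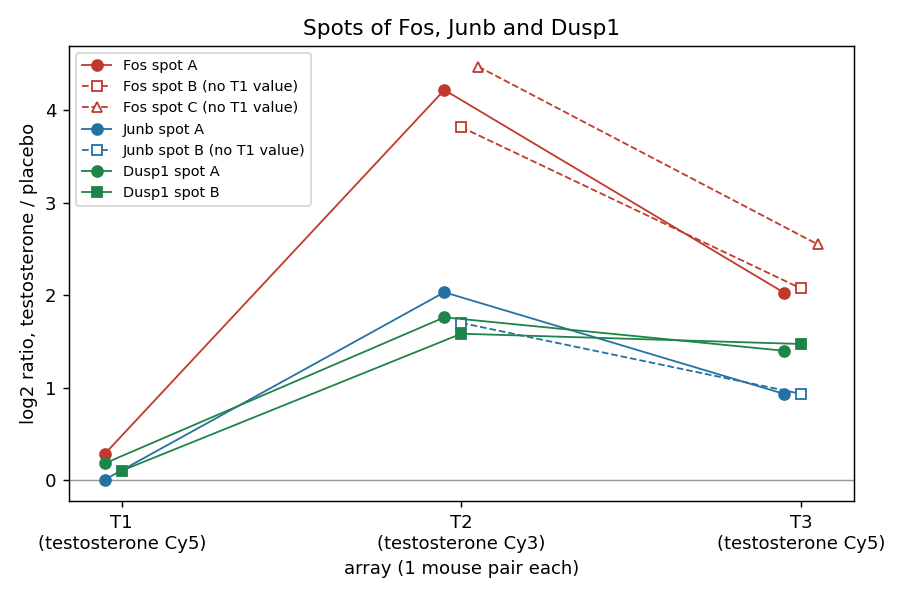
Log2 ratio of testosterone to placebo (vertical axis) on each array (horizontal axis) for the 7 spots of Fos, Junb and Dusp1; filled symbols are the 4 spots with a value on all arrays, open symbols the 3 without a T1 value, and lines join the values of 1 spot. All T1 values lie between 0.009 and 0.29, and all values on T2 and T3 lie at 0.94 or above.

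Over the 3 pairs, the mean was 2.18 ± 1.97 for Fos spot A (SD, n = 3 pairs), 0.99 ± 1.01 for Junb spot A, 1.12 ± 0.83 for Dusp1 spot A and 1.06 ± 0.82 for Dusp1 spot B. The SD was smaller than the mean in Fos and Dusp1 and larger in Junb, and at each spot the lowest value was that of T1. In the limma fit over all spots, 0 of the 4 passed after Benjamini-Hochberg adjustment, 0 with robust eBayes and 4 at an unadjusted p under 0.05, against 2.83% of all spots tested that passed after adjustment (1.13% as higher and 1.71% as lower). At an unadjusted p under 0.05 there were 1808 of the 6039 spots tested. The genes were chosen from this same comparison, so nothing is read from these counts.

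Spots of 1 gene on 1 array show how far a ratio differs within the same hybridisation. Over pairs of spots that share a sequence accession, the median difference between both values was 0.078 for 616 pairs of T1, 0.12 for 502 pairs of T2 and 0.12 for 520 pairs of T3, and 95% of pairs differed by at most 0.39, 0.53 and 0.40. The Dusp1 spots differed by 0.079 (T1), 0.18 (T2) and 0.073 (T3). The Junb spots differed by 0.33 on T2 and had the same value on T3. Fos spots B and C differed by 0.65 on T2 and 0.48 on T3, beyond the range that held 95% of pairs on each array. The 7 spots lay in 5 of the 32 consecutive runs of spots, all of equal size, whose means are near 0 on every array.

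T2, the array with the highest ratios of Fos and Junb, is also the single array on which testosterone carried Cy3, so for T2 the mouse pair and the dye orientation cannot be told apart. T1 and T3 share an orientation, and between them the ratio on T3 was higher by 1.74 in Fos, 0.93 in Junb and 1.22 and 1.37 in Dusp1. A mean that gives both orientations equal weight was 2.69 for Fos, 1.25 for Junb and 1.28 and 1.19 for Dusp1. With the sign of T2 turned, as would be right if its deposited ratio were Cy5 over Cy3, the mean was -0.63 for Fos, -0.36 for Junb and -0.059 and -0.002 for Dusp1.

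Single arrays set the size of these means. Without T1 the mean was 3.125 for Fos, 1.485 for Junb and 1.58 and 1.53 for Dusp1. Without T2 it was 1.16 for Fos, 0.47 for Junb and 0.79 at both spots of Dusp1. Without T3 it was 2.25, 1.02, 0.97 and 0.85 in the same order. The means stayed above 0 whichever array was left out, and the value without T2 was less than the full mean at each of the 4 spots. If the deposited values were natural logs, the folds of the means would be 8.84 for Fos, 2.70 for Junb and 3.05 and 2.87 for Dusp1, in place of 4.53, 1.99, 2.17 and 2.08.

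Among the 6039 spots tested, 26 (0.431%) were at least as high as the lowest value of these genes on both T2 (1.59) and T3 (0.94), bounds taken from the spots themselves and from T2 as deposited; with T2 turned all 26 would be low on it. They were the 4 spots described above, both spots of Egr1, 7 other named spots and 13 without a single gene name. On T1 the remaining 20, leaving out Egr1, ran from 0.14 to 0.67, and 18 of them were above 0.29, the highest T1 value of Fos, Junb or Dusp1. The bounds were set by genes chosen for these values, so nothing about the genes is read from the counts. Of spots without a T1 value, 4 were as high on T2 and T3, namely Fos spots B and C, Junb spot B and a spot of Ccn2, which encodes a secreted matrix-associated protein.

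**Figure D2:**
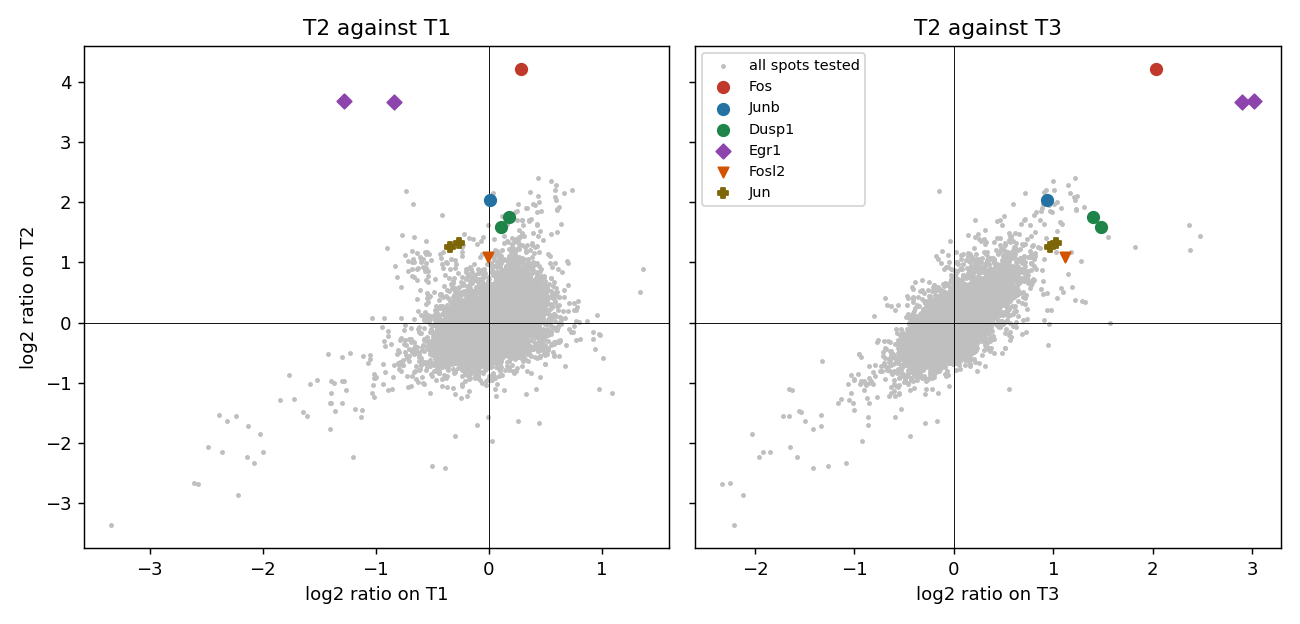
Log2 ratios on T2 (vertical axis) against those on T1 (left) and T3 (right) for the 6039 spots tested (grey), with the spots of Fos, Junb, Dusp1, Egr1, Fosl2 and Jun in colour. Fos, Junb and Dusp1 lie high on T2 and T3 and between 0.009 and 0.29 on T1, whereas Egr1 lies below 0 on T1.

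The other AP-1 genes measured on all arrays were Fosl2, Jun and Atf2, and 0 of these 3 passed in the limma fit over 3462 genes, where 4.91% passed in either direction, 1.68% as higher and 3.24% as lower. At an unadjusted p under 0.05 there were 2, against 972 of the 3462 genes tested, and with robust eBayes 0. Fosl2, a Fos family member, had -0.001 (T1), 1.09 (T2) and 1.12 (T3) (mean 0.73 ± 0.64, n = 3, adjusted p = 0.0765 by limma). Jun, the founding partner of Fos in AP-1, had -0.30, 1.29 and 0.997 on T1, T2 and T3 as the mean of 2 spots (0.66 ± 0.85, adjusted p = 0.158 by limma; -0.20 with T2 turned). Both were above 0 on T2 and T3 and at or below 0 on T1. A further Jun spot, of another sequence and with no T1 value, was lower, with 0.28 on T2 and 0.58 on T3. Atf2, a basic leucine zipper factor regulated mainly by phosphorylation, had 0.16, 0.096 and 0.20 as the mean of 3 spots (0.15 ± 0.05, adjusted p = 0.331). On T2 those spots differed in sign, with -0.30, 0.36 and 0.225. The median of the 3 gene means was 0.66, against -0.071 over all genes tested. Without T1 the mean was 1.10 for Fosl2 and 1.145 for Jun. Without T2 it was 0.56 and 0.35, and without T3 0.54 and 0.495, in the same order. No p is given for the fits without T1, since T1 was already seen to be lowest. Of the 13 genes listed, 7 were on the array, and the spot of Jund had a value on T1 alone (0.80).

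Among dual specificity phosphatases other than Dusp1, 2 of 20 listed genes were measured on all arrays and 1 rose, against 1.68% higher over all genes tested. Without adjustment 1 was higher and 1 lower, against 972 of the 3462 genes tested in either direction. Dusp9, a phosphatase that acts mainly on ERK, had 0.33 (T1), 0.87 (T2) and 0.72 (T3) and was 1.56-fold higher (0.64 ± 0.28, n = 3, adjusted p = 0.044 by limma). It was above 0 on all 3 arrays, T1 included. The adjusted p rose above the threshold without T2 (0.226), without T3 (0.273), after median centring (0.0558) and with T2 turned (0.999). Dusp11, which acts on RNA, had -0.325, -0.585 and -0.18 (-0.36 ± 0.21, adjusted p = 0.0945).

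Of 55 other immediate-early and early-response genes listed, 31 were on the array and 20 were measured on all arrays; 2 fell, 0 rose and 18 did not pass, against 3.24% lower and 1.68% higher over all genes tested. Without adjustment 3 were higher and 4 lower, against 972 of the 3462 genes tested in either direction, and robust eBayes called 2. The list's median was 0.017, with 10 of 20 means above 0, against a median of -0.071 and 37.6% of means above 0 over all genes tested. The medians by array were -0.018 (T1), -0.16 (T2) and 0.001 (T3), so the list as a whole did not show the high T2 and T3 of Fos.

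Egr1, a zinc finger factor induced by the same kinases as Fos, had the highest mean of this list. Its first spot had -1.28 (T1), 3.69 (T2) and 3.02 (T3), and its other spot -0.84, 3.67 and 2.895. The gene mean was 1.86 ± 2.55 (n = 3, adjusted p = 0.16 by limma), and T1 went the opposite way from T2 and T3, whereas Fos on T1 was 0.29. With T2 turned the mean of Egr1 was -0.595, without T1 3.32, without T2 0.95 and without T3 1.31. Ccn2 had 0.28 (T1), 1.44 (T2) and 2.47 (T3) (1.40 ± 1.09, adjusted p = 0.053), with T3 higher than T2. The mean of Ccn2 was 1.95 without T1, 1.38 without T2 and 0.86 without T3. Rhob, a small GTPase, had 0.21, 0.39 and 0.33 (0.31 ± 0.09, adjusted p = 0.103).

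The genes of this list that fell were Klf2 and Btg1. Klf2, a transcription factor of lymphocyte quiescence, had -0.53, -0.65 and -0.66 on T1, T2 and T3 and was 1.53-fold lower (-0.61 ± 0.07, n = 3, adjusted p = 0.0199 by limma). Btg1, an antiproliferative protein abundant in lymphocytes, had -0.83, -0.66 and -0.45 and was 1.57-fold lower (-0.65 ± 0.19, adjusted p = 0.0257). Their values were below 0 on every array, T1 included. Both calls were lost without T2 (adjusted p = 0.131 for Klf2 and 0.168 for Btg1), without T3 (0.243 and 0.146) and with T2 turned (0.999 for both).

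**Figure D3:**
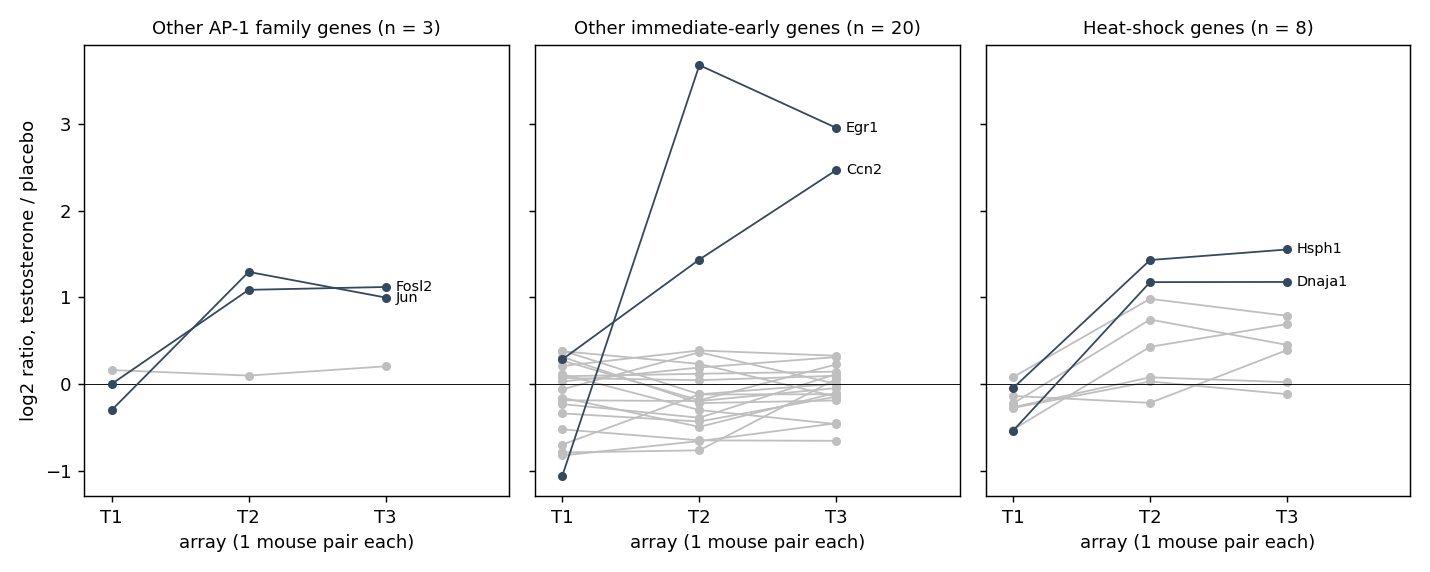
Log2 ratios by array of the AP-1 genes other than Fos and Junb (3 genes), the other immediate-early genes (20 genes) and the heat-shock genes (8 genes); each line is 1 gene, and genes past 1 on either side of 0 on any array are dark and named. Egr1, Ccn2, Fosl2, Jun, Hsph1 and Dnaja1 stand out on T2 and T3, and most other immediate-early genes lie near 0.

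Of 52 genes of the ERK, JNK and p38 kinase cascades and the nuclear factors they act on, which lie upstream of Fos, Junb and Dusp1, 20 were measured; 1 fell, 0 rose and 19 did not pass, against 3.24% lower and 1.68% higher over all genes tested. Without adjustment 3 were higher and 2 lower, against 972 of the 3462 genes tested in either direction, and robust eBayes called 1. Map3k1, a kinase upstream of JNK and ERK, had -0.575, -0.48 and -0.64 on T1, T2 and T3 and was 1.48-fold lower (-0.565 ± 0.08, n = 3, adjusted p = 0.0277 by limma). The call was lost without T2 (0.119), without T3 (0.273), after median centring (0.0515) and with T2 turned (0.999). The other Map3k1 spot, of another sequence, had a value on T1 alone. That value was 0.28, opposite in sign to the spot used. The small GTPase Nras had 0.27, 0.86 and 0.32 (0.48 ± 0.33, adjusted p = 0.0746). The list's median was -0.10, and 7 of 20 means were above 0. Over all genes tested the median was -0.071 and 37.6% of means were above 0.

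Among 14 genes that textbooks give as AP-1 targets, 6 were measured and 0 passed by limma. Over all genes tested, 1.68% passed as higher and 3.24% as lower. At an unadjusted p under 0.05, 2 were higher and 1 lower, against 972 of the 3462 genes tested in either direction, and robust eBayes called 0. The metallothionein Mt2 had 0.091 (T1), 0.70 (T2) and 1.17 (T3) (0.65 ± 0.54, adjusted p = 0.0755). The collagenase Mmp13 had -0.43, -0.21 and -0.225 (-0.29 ± 0.12, adjusted p = 0.123). The list's median was 0.255, against -0.071 over all genes tested. Dusp1 and Mt2 are also induced by glucocorticoids, and of 18 glucocorticoid-responsive genes 8 were measured and 0 passed by limma. There were 2 higher and 1 lower at an unadjusted p under 0.05 and 0 by robust eBayes, beside the same shares over all genes. That list had a median of 0.105, and Nfkbia, the inhibitor of NF-kappa B, had -0.79, -0.77 and 0.057 (-0.50 ± 0.48, adjusted p = 0.114).

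Heat-shock genes, which like immediate-early genes respond to stress, were measured for 8 of 14 listed. Of these, 0 passed by limma, against 1.68% higher and 3.24% lower over all genes tested. At an unadjusted p under 0.05, 2 were higher, against 972 of the 3462 genes tested in either direction, and robust eBayes called 0. The medians of the heat-shock list by array were -0.25 (T1), 0.585 (T2) and 0.57 (T3), with 1 of 8 above 0 on T1 and 7 of 8 on each of T2 and T3. Over all genes tested the medians were -0.038 (T1), -0.116 (T2) and -0.055 (T3). Hsph1, a large heat-shock protein, had -0.049, 1.43 and 1.55 (0.98 ± 0.89, n = 3, adjusted p = 0.0758). Dnajb1, a co-chaperone, had 0.078, 0.98 and 0.79 (0.615 ± 0.48, adjusted p = 0.0703; -0.039 with T2 turned). Both followed the order of T1 below T2 and T3 that Fos, Junb and Dusp1 showed.

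The genes most like each member were taken as the 3 of smallest Euclidean distance over the 3 arrays, among 3459 other genes and with no test. For Fos they were Egr1 (distance 1.72), Stxbp6, a syntaxin-binding protein (2.15), and Nlgn1, a neuronal adhesion protein (2.29). For Junb they were Chsy3, a chondroitin synthase (0.27), Hipk2, a nuclear kinase (0.41), and Ptprm, a receptor phosphatase (0.52). For Dusp1 they were Hsph1 (0.33), Hipk2 (0.37) and Chsy3 (0.54). Junb and Dusp1 lay 0.63 apart, and Fos lay 2.46 from Junb and 2.62 from Dusp1. The nearest neighbour of Fos was thus farther from it than those of Junb and Dusp1 were from them. The Chsy3 spot used had 0.26, 1.98 and 1.004, and its other spot, of another sequence, had 0.23 on T1 and 0.46 on T2, so the spots of that gene disagreed on T2. The other Stxbp6 spot, of the same sequence, had a value on T1 alone. That value was 0.12, against 0.59 at the spot used, farther apart than the duplicate range of T1 given above (0.39). The values used for Stxbp6, Nlgn1, Chsy3, Hipk2 and Ptprm each came from 1 spot annotated with a genomic clone, so these gene names are less certain. Some spots without a single gene name that were as high on T2 and T3 carried such clones too.

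Markers of other cells in the collected bones also differed between pairs. Skeletal muscle markers (7 measured of 21 listed) had a median of -0.032 on T1 with a range of -0.19 to 0.12. On T2 it was -0.82 (-1.57 to -0.41), and on T3 -0.41 (-0.65 to -0.24), the reverse of the order of Fos. The 5 osteoblast and matrix genes measured of 18 listed had medians of 0.22, -1.05 and -0.16 on T1, T2 and T3, and the 6 neutrophil genes of 19 listed 0.56, 0.065 and -0.11. B-lineage markers (9 genes of 20) had low medians on all 3 arrays, of -2.13, -2.24 and -1.65, and did not set T1 apart. Of these 9 genes, 2 were above 0 on T2 and 1 on T3. Erythroid markers (9 genes) had 0.12, 0.31 and 0.29, monocyte and macrophage markers (7 genes) 0.20, 0.21 and 0.12, and endothelial markers (3 genes) -0.10, -0.24 and 0.10. The part of these cells in the ratios of Fos, Junb and Dusp1 was not tested.

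**Figure D4:**
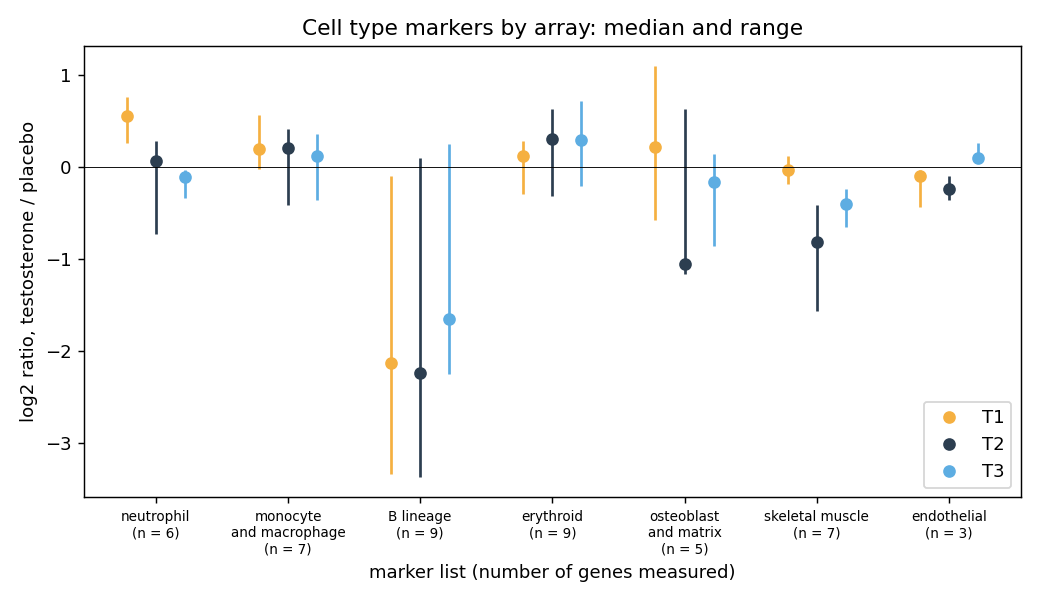
Median (point) and range (line) of the log2 ratios of each cell type marker list on T1, T2 and T3, with the number of genes measured under each name. Skeletal muscle and osteoblast medians are lowest on T2, neutrophil medians are highest on T1, and B-lineage medians are between -2.24 and -1.65 on all arrays.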

How the data were processed

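The authors deposited 1 signed log ratio per spot and array, read here as log2. How the ratios were made (base, numerator, background, filters) is not given in the sources used here. They were used as deposited, with no added normalization. Column medians were 0.007 on T1, -0.062 on T2 and -0.025 on T3. Genes were named from spots with 1 annotated gene (8050 spots), with symbols updated through Entrez IDs and the RefSeq table of GRCm38.p6 (7880 spots matched). Of 6051 spots with a value on all 3 arrays, 12 control or non-mouse spots were left out, and 6039 were tested against 0, two-sided, with limma 3.58.1 (lmFit, eBayes; R 4.3.3) at a Benjamini-Hochberg adjusted p of 0.05. Gene tests used the mean of a gene's spots (3462 genes). The procedure was tested on simulated data. Precision is limited by having 3 pairs, and a spot's standard error had a median of 0.118. Where a fit left out an array, it had 2 values per spot.

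The genes and lists were chosen with earlier results of these data known. Named were all spots of Fos, Junb and Dusp1, in each list the genes that passed and the 2 of smallest p (4 for AP-1 and other immediate-early genes), and the 3 genes nearest each member. Egr1 and Ccn2 fall under these rules. Jund, Dnaja1 and the further spots of Jun, Map3k1 and Stxbp6 were named after their values were seen. The alternatives were the sign of T2 turned, each array left out, a dye term, median centring with and without scaling, robust eBayes, a threshold of 0.10, the inclusion of spots measured on only 2 arrays, and single spots in place of gene means.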

Additional observations from a re-analysis of the deposited data

How the results depend on the processing

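The count of changed spots (171; 68 higher, 103 lower) was 0 in either direction with T2 turned, where 20 spots had an unadjusted p under 0.05 by limma. Leaving out 1 array gave 38 to 1095 changed spots, with 0 to 682 higher and 38 to 413 lower. The largest of these counts came without T1, the array already seen to be lowest for Fos, Junb and Dusp1, so nothing is read from them. The count was 57 (4 higher, 53 lower) after median centring and 816 (595 higher, 221 lower) after centring and scaling. With a dye term it was 1309 (785 higher, 524 lower), and at a threshold of 0.10 it was 1165 (724 higher, 441 lower). The means of Fos, Junb and Dusp1 moved by more than 1 SD only with T2 turned, to -0.63 (Fos), -0.36 (Junb), -0.059 and -0.002 (Dusp1). Among the other immediate-early genes, leaving out 1 array gave 0 to 2 higher and 0 to 3 lower members, and turning T2 gave 0 lower. Here too the largest counts came without T1. With T2 turned the mean changed sign for 11 of 22 other named genes: Egr1 (-0.595), Jun (-0.20), Chsy3 (-0.24), Hipk2 (-0.155), Ptprm (-0.38), Nlgn1 (-0.20), Stxbp6 (-0.18), Dnajb1 (-0.039), Nras (-0.090), Dusp11 (0.027) and Nfkbia (0.011). No other setting changed the sign of any of these 22. The cause was not tested, beyond the fact that T2 alone had the opposite dyes. Each array already holds the ratio within 1 mouse pair, so the fit against 0 is itself a comparison within pairs. No ratio could be set against its spot's background, since brightness was not analysed here.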
